A study of Homo sapiens with 6 samples.

Results

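The hypoxia factors and classic HIF targets examined here were 10 genes, HIF1A, EPAS1, ARNT, EGLN1, EGLN3, VEGFA, ADM, NDRG1, BNIP3 and CA9, taken by symbol from a table of 58735 genes, and 9 of them had enough signal to be tested. RNA was sequenced from Hep-G2, an established human liver cancer line, in 3 libraries of cells with a negative control hairpin (sh-NC, labelled wild type) and 3 libraries of cells with a hairpin against CLGN (sh-CLGN, labelled as a CLGN knockdown). The product of CLGN is calmegin, a chaperone that resides in the endoplasmic reticulum. All 6 libraries carried the label 0DAY. Both hairpins were delivered by lentivirus under puromycin selection, with 1 hairpin sequence per group. Effects of the CLGN hairpin on other transcripts therefore cannot be told apart from the loss of CLGN, and in bulk RNA fewer cells with a transcript cannot be told apart from less of it per cell. The labels do not say that libraries of a group came from separate cultures, so p-values measure the spread between these libraries, which may be technical.

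Hypoxia-inducible factor (HIF) is a transcription factor made of an alpha subunit, HIF1A or EPAS1 (also named HIF-2α), and the beta subunit ARNT. When oxygen is present, prolyl hydroxylases of the EGLN family modify the alpha subunits, the VHL ubiquitin ligase binds the modified form, and the proteasome removes it. When oxygen is scarce the alpha subunits persist, pair with ARNT at hypoxia response elements and switch on genes for blood vessel growth, glycolysis, mitochondrial turnover and pH control. Because this control acts on protein stability, transcript levels of the subunits do not report HIF activity. EPAS1 is also known as the main driver of erythropoietin in liver.

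CLGN itself stood at 24.1, 21.0 and 26.1 FPKM (a level scaled by library size and gene length) in control replicates 1, 2 and 3, and at 9.48, 8.88 and 8.60 after knockdown, a log2 fold change of -1.31 (SE 0.0807, adjusted p = 8.35e-06, limma). Control libraries held 14955816 to 16244639 reads, and knockdown libraries 15086344 to 15675776. The groups also stood apart in the share of mitochondrial reads, 3.25% to 4.02% against 5.49% to 5.80% after knockdown, and in genes with a read, 23578 to 23793 against 26814 to 27006. Of 10 hepatocyte markers, 3 rose and 6 fell, with summed levels of 7086 to 7319 and 7178 to 7642 FPKM. Of 9 mesenchymal markers 8 were tested and all 8 were called higher, from a summed 63.8 to 68.8 FPKM to 222 to 224, while DCN had at most 3 reads in any library. Of these 8, 4 passed the filter only through sh-CLGN, so their direction was fixed by it, and all 4 were also called without the filter. Of 5 immune markers 2 were tested and both fell, with CD3E at 3 reads or fewer, and of 4 endothelial markers 1 was tested and fell, with VWF and TEK at 3 reads or fewer. The part of these differences in the values below was not tested.

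Among the 9 hypoxia genes tested, 6 fell in sh-CLGN, namely EPAS1, ARNT, VEGFA, ADM, NDRG1 and BNIP3, and 1 rose, EGLN3. HIF1A and EGLN1 did not pass the test, and CA9 was too low to be tested. A gene was called at a Benjamini-Hochberg adjusted p of at most 0.05 in limma, a linear model fitted to log2(FPKM + 1) over 13074 genes that reached 1 FPKM in 3 or more libraries, and every fold change below is on that scale, sh-CLGN against sh-NC, unless said otherwise. By this rule 39.0% of all genes tested fell and 26.7% rose, so calls were common in this comparison. The median log2 fold change of the 9 genes was -0.45, beside -0.08 over all genes tested. For 8 of the 9 the 3 sh-NC libraries did not overlap with the 3 sh-CLGN libraries, which was so for 70.2% of all genes tested. The count of called hypoxia genes whose log2 fold change also reached 1 in size was 0 in limma and 0 in voom, a limma fit to the recovered reads. Over all 13074 genes tested this count was 821 (6.28%) in limma and 1722 in voom. An unadjusted p under 0.05 in limma was met by 6 hypoxia genes that were lower and 1 that was higher.

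**Figure D1:**
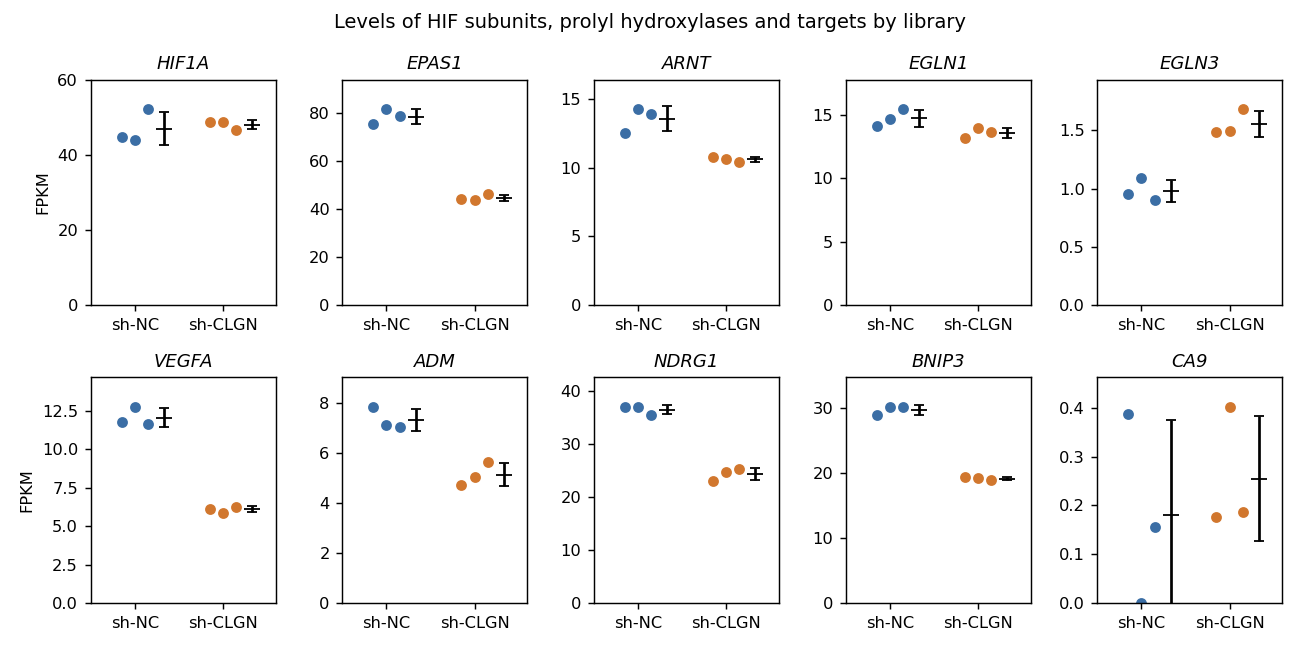
FPKM level (y axis, from 0) of each of the 10 genes in the 3 sh-NC (blue) and 3 sh-CLGN (orange) libraries, replicates 1 to 3 from left to right, with the mean and SD of each group in black. The groups are separate for EPAS1, ARNT, EGLN1, EGLN3, VEGFA, ADM, NDRG1 and BNIP3, and overlap for HIF1A and CA9.

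Promoters show which of these genes carry the core of the hypoxia response element, written here as ACGTG or GCGTG, close to their start. RefSeq promoters on GRCh38.p14 were at hand for 8 of the 10 genes, but not for VEGFA and NDRG1, which both fell. The 250 bases before the RefSeq start were searched on both strands. Such a core was found for 6 of the 8, HIF1A, EPAS1, EGLN1, ADM, BNIP3 and CA9, and not for ARNT and EGLN3. The matches of EGLN1, ADM and CA9 lie in bases that GENCODE 29 annotates as exons of the gene, and those of HIF1A, EPAS1 and BNIP3 lie before its first exon base in the window. Of 35116 RefSeq promoters of that length 43.2% held either core, 18.5% ACGTG and 32.2% GCGTG, so a match by itself is common. BNIP3 held 6 matches in 5 stretches, because an ACGTG on each strand overlaps in the same letters, and 0.646% of promoters held 6 or more. The part of the window before any GENCODE 29 exon base of the gene is given for both alpha subunits, BNIP3 and EGLN3. The EPAS1 and EGLN3 windows lie inside the annotated gene spans, chr2:46293667-46386703 and chr14:33924231-34462774. BNIP3 fell and holds the most matches, while EGLN3, which rose, and ARNT, which fell, hold none. EPAS1 and ADM, which fell, hold 1 each, as do HIF1A and EGLN1, which were not called, and CA9, which was too low to test. A relation of matches to the direction of change was not tested. The share of promoters with 6 or more was not matched for GC content, 81.6% in the BNIP3 window and 64% in that of EGLN3. Capitals mark a core on either strand, and each stretch is read 5′ to 3′ along the gene.
HIF1A (chr14:61695263-61695512, plus strand): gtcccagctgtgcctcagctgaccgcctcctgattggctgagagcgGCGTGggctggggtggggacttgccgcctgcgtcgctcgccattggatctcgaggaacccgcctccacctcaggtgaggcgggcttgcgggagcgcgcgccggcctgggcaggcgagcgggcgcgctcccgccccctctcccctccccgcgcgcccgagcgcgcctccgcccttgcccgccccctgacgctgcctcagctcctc
EPAS1 (chr2:46297157-46297401, plus strand): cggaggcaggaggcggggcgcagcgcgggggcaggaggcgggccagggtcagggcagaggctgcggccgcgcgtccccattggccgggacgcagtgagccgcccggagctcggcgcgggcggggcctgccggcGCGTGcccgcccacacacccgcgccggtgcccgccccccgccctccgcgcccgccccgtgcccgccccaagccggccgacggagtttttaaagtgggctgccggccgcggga
BNIP3 (chr10:131982014-131982173, minus strand): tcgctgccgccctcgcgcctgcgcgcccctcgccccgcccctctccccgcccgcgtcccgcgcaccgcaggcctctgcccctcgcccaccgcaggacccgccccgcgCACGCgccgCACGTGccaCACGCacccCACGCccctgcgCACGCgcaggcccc
EGLN3 (chr14:33951082-33951324, minus strand): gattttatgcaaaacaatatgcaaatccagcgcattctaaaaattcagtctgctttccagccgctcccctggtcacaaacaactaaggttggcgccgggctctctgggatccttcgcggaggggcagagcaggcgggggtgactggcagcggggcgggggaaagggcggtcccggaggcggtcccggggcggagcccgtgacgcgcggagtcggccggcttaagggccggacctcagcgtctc
The single cores of HIF1A and EPAS1, both GCGTG in the direction of the gene, begin 204 and 117 bases before the RefSeq start. In BNIP3 the matches begin between 143 and 104 bases before it. A match names letters in a window and is not a binding site, and HIF1A has another RefSeq start whose window held no match.

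EPAS1 fell while HIF1A did not pass the test, which brought the levels of the alpha subunits close together (gene positions here and below are those of the deposited table, on GRCh38). HIF1A (chr14:61695513-61748259), the alpha subunit found in nearly all tissues, stood at 45.0, 44.2 and 52.3 FPKM in sh-NC and at 48.9, 48.9 and 46.8 in sh-CLGN. All 3 sh-CLGN libraries lay within the sh-NC range. The log2 fold change was 0.03 (SE 0.0691, 95% confidence interval -0.13 to 0.19, adjusted p = 0.678). HIF1A rested on 3232 to 4272 reads per library, and the exons it shares with the antisense HIF1A-AS1 cover 117 bases, a gene with at most 8 reads in any library.

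EPAS1 (chr2:46293667-46386703), the alpha subunit best known from endothelium, kidney and liver, stood at 75.4, 81.7 and 78.8 FPKM in sh-NC and at 44.1, 43.6 and 46.2 in sh-CLGN. Each knockdown library lay under the lowest control. Mean levels were 78.6 ± 3.18 and 44.7 ± 1.39 FPKM (SD, n = 3 each), so EPAS1 fell to 56.8% of the control, with a log2 fold change of -0.80 (SE 0.0498, adjusted p = 8.51e-06). The call held under all 19 alternative settings, with values from -0.82 to -0.51 among those that kept every library.

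ARNT (chr1:150809705-150876768), the beta subunit that both alpha subunits need to bind DNA, stood at 12.6, 14.3 and 13.9 FPKM in sh-NC and at 10.8, 10.6 and 10.4 in sh-CLGN. The groups were separate, and the sh-CLGN libraries lay closer together than the sh-NC libraries. ARNT fell to 78.2% of the control, a log2 fold change of -0.33 (SE 0.0596, adjusted p = 0.00173). With libraries scaled by their read totals it was -0.15 and no longer called (adjusted p = 0.0726). Under that scaling the median shift of all genes, taken gene by gene, was 0.17 upward. Relative to this shift ARNT was at -0.31.

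Within a library, the EPAS1 level over the HIF1A level was 1.68, 1.85 and 1.51 in the controls, against 0.902, 0.893 and 0.988 after knockdown. EPAS1 was thus the higher of the pair in every sh-NC library and the lower in every sh-CLGN library. The ratio, which does not depend on how libraries are scaled to each other, was 1.68 ± 0.172 and 0.928 ± 0.0522 (SD, n = 3 each; two-sided exact permutation p = 0.1, which is the lowest value possible with 3 and 3 libraries). The point at which the pair is equal depends on gene length: per base of the longest annotated transcript instead of the deposited length the ratios were 1.82 ± 0.187 and 1.01 ± 0.0566. Transcripts of EPAS1 and HIF1A have a GC content of 55.7% and 41.0%, and the log2 fold change of EPAS1 less that of HIF1A was -0.84, or -0.48 with a GC trend removed in each library.

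**Figure D2:**
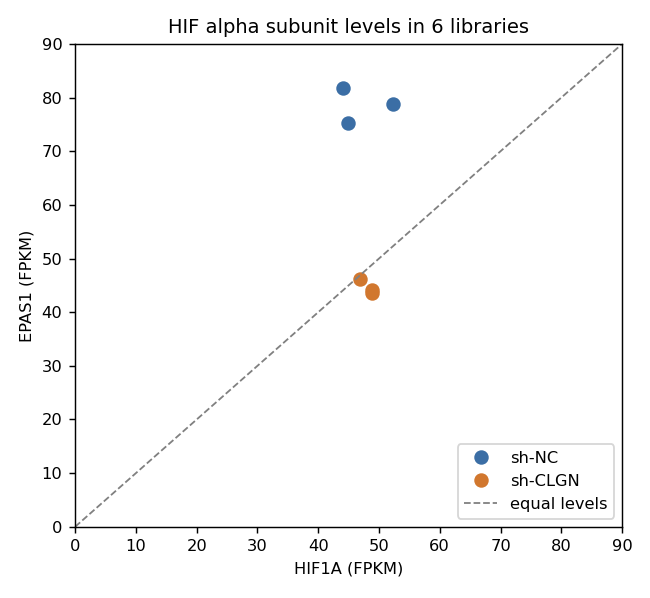
EPAS1 level (y axis, FPKM) against HIF1A level (x axis, FPKM) in each of the 3 sh-NC (blue) and 3 sh-CLGN (orange) libraries, with a dashed line where both levels are equal. The sh-NC points lie above the line, between 75.4 and 81.7 FPKM of EPAS1, and the sh-CLGN points lie on its other side, between 43.6 and 46.2.

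Of the prolyl hydroxylases EGLN3 rose and EGLN1 was not called. EGLN1 (chr1:231363751-231425044), the main oxygen sensor of the family under normal oxygen, stood at 14.1, 14.6 and 15.5 FPKM in sh-NC and at 13.2, 14.0 and 13.6 in sh-CLGN. The groups did not overlap, but the gap between them was small beside the spread within sh-NC. The level in sh-CLGN was 92.2% of the control, the log2 fold change was -0.11 (SE 0.0535, 95% confidence interval -0.23 to 0.02, adjusted p = 0.107), and EGLN1 was not called.

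EGLN3 (chr14:33924231-34462774), a hydroxylase that is itself induced by HIF, stood at 0.955, 1.09 and 0.905 FPKM in sh-NC and at 1.49, 1.49 and 1.68 in sh-CLGN. It was low in all libraries, with 98 to 117 reads per control library and 180 to 200 after knockdown, and the groups were separate. EGLN3 rose to 158% of the control, a log2 fold change of 0.37 (SE 0.0871, adjusted p = 0.00653), a scale on which the added 1 FPKM understates the change of a gene this low. With 0.1 in place of 1 it was 0.61, and in voom on genes with at least 10 reads 0.66. Under quantile normalization it was 0.19 and not called (adjusted p = 0.0873). EGLN3 reached 1 FPKM in 1 control library and 3 knockdown libraries, so it passed the filter only through the group where it is higher. In a fit without that filter it was called as well (adjusted p = 0.0247).

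Both secreted targets fell. VEGFA (chr6:43770184-43786487), the growth factor that draws new blood vessels, stood at 11.8, 12.8 and 11.6 FPKM in sh-NC and at 6.14, 5.88 and 6.27 in sh-CLGN. No library of either group came near the other group. Mean levels were 12.1 ± 0.617 and 6.10 ± 0.198 FPKM (SD, n = 3 each), so VEGFA fell to 50.6% of the control, with a log2 fold change of -0.88 (SE 0.0575, adjusted p = 1.06e-05), the largest absolute change among the 9 genes.

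ADM (chr11:10304680-10307397), which encodes the vasodilator peptide adrenomedullin, stood at 7.86, 7.13 and 7.06 FPKM in sh-NC and at 4.73, 5.05 and 5.63 in sh-CLGN. Its groups were separate, with the widest relative spread in sh-CLGN of the genes that fell. ADM fell to 69.9% of the control, a log2 fold change of -0.45 (SE 0.0738, adjusted p = 0.00103), on 283 to 298 reads per control library and 218 to 247 after knockdown.

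The intracellular targets fell too. NDRG1 (chr8:133237171-133302022), a stress-induced gene linked to differentiation and growth arrest, stood at 37.0, 37.0 and 35.5 FPKM in sh-NC and at 23.0, 24.8 and 25.2 in sh-CLGN. The groups were far apart relative to their spread. NDRG1 fell to 66.6% of the control, with a log2 fold change of -0.57 (SE 0.0518, adjusted p = 4.86e-05).

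BNIP3 (chr10:131966455-131982013), a receptor on the outer mitochondrial membrane that marks mitochondria for autophagy, stood at 28.8, 30.1 and 30.1 FPKM in sh-NC and at 19.4, 19.2 and 18.8 in sh-CLGN. The groups did not overlap, and the standard error of the change was the smallest of the 9 genes. BNIP3 fell to 64.4% of the control, a log2 fold change of -0.61 (SE 0.0450, adjusted p = 1.83e-05). The table also lists 39 BNIP3 pseudogenes, which took 297 reads over all libraries against 12004 for BNIP3, and reads could be split between them.

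CA9 (chr9:35673856-35681159), the cell surface carbonic anhydrase often used as a marker of hypoxic tumour tissue, was close to the limit of detection. Its reads numbered 9, 0 and 4 in the controls against 5, 11 and 5 after knockdown, or 0.386, 0 and 0.155 FPKM against 0.176, 0.402 and 0.185. The groups overlapped, and 1 library of sh-NC was at 0, which allows up to 3 reads, a limit for counting error only. CA9 shares 643 of its 1670 exon bases with ARHGEF39 on the opposite strand, a gene with 375 to 458 reads per library, and whether the counting used strand is not given in the sources used here. With every gene let into the fit, the log2 fold change of CA9 was 0.10 (adjusted p = 0.640), a value held near 0 by the added 1 FPKM, and in voom on genes with at least 10 reads it was 1.18 (adjusted p = 0.212), so no difference was detectable at this depth.

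**Figure D3:**
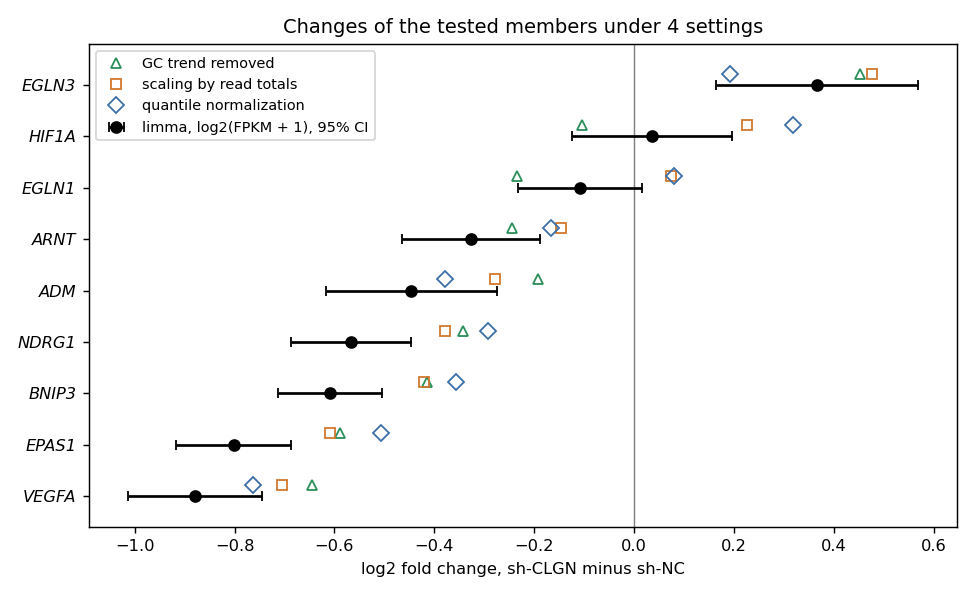
Log2 fold change (x axis, sh-CLGN minus sh-NC) of the 9 tested genes, with the limma value and its 95% confidence interval in black and the value after removal of a GC trend (triangles), with scaling by read totals (squares) and under quantile normalization (diamonds). EPAS1, ARNT, VEGFA, ADM, NDRG1 and BNIP3 lie below 0 and EGLN3 above 0 in all 4 settings, while HIF1A and EGLN1 lie on both sides of 0.

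The genes that fell had transcripts richer in G and C than those that did not pass. GC content was 48.4% for ARNT and 53.9% to 59.9% for BNIP3, EPAS1, NDRG1, VEGFA and ADM, against 41.0% for HIF1A and 41.4% for EGLN1. EGLN3, which rose, was at 48.6%, just above ARNT. With the trend of level on GC content removed in each library, the 6 genes still fell and EGLN3 still rose, but the values of 2 moved by more than 1.5 times. ADM was then at -0.19 (adjusted p = 0.0246) and NDRG1 at -0.34 (adjusted p = 1.83e-04). EPAS1 was at -0.59, VEGFA at -0.64 and BNIP3 at -0.41. Quantile normalization also drew values towards 0, with EPAS1 at -0.51, BNIP3 at -0.36, NDRG1 at -0.29 and ARNT at -0.17, all still called. With scaling by read totals ADM was at -0.28, still called, which is -0.45 relative to the shift of all genes. After removal of the GC trend EGLN1 became a gene that fell, at -0.23 (adjusted p = 0.00171), and HIF1A turned to -0.10 (adjusted p = 0.0430, and 0.0764 with the replicate number as a block). HIF1A was instead called higher under quantile normalization, at 0.32, and with scaling by read totals, at 0.23, which is 0.059 above the shift of all genes under that scaling. So HIF1A had no direction that all settings shared, and neither had EGLN1, which was above 0 under TPM, quantile and read-total scaling.

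In sh-NC the order of levels ran EPAS1, HIF1A, NDRG1, BNIP3, EGLN1, ARNT, VEGFA, ADM, EGLN3 and CA9. The ranges of EGLN1 and ARNT overlapped over libraries, as did those of ARNT and VEGFA. Within each of the 3 libraries, however, EGLN1 was above ARNT and ARNT above VEGFA. Differences between neighbours were not tested. In sh-CLGN, HIF1A came before EPAS1, the rest of the order was the same and no neighbours overlapped. Levels per length depend on which length is used, since the deposited gene length was between 1.02 and 2.58 times the longest transcript. Per longest transcript NDRG1 was above HIF1A in sh-NC, at 90.01 against 61.4. In sh-CLGN, EPAS1 was then at 63.1 and HIF1A at 62.8, so the swap of this pair depends on the length used.

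Among the genes whose pattern over the 6 libraries was most like that of VEGFA were NES and KIF21B. NES, the intermediate filament protein nestin, was at 65.8, 70.2 and 64.1 FPKM in sh-NC and at 36.7, 35.8 and 37.2 in sh-CLGN. Pearson's r of log2(FPKM + 1) with VEGFA was 0.9998 for NES and 0.9997 for KIF21B. These are descriptions over 6 libraries that share 2 groups, and 2917 of 13073 other genes had an r of at least 0.95.

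Further genes of the pathway were read from 5 lists, in the same fit and against the same 26.7% of genes that rose and 39.0% that fell. Of 9 genes of oxygen sensing, 6 were tested, 3 fell, 2 rose and 1 was not called, with a median log2 fold change of -0.05. VHL, which recognises hydroxylated HIF, fell from 65.4 ± 3.64 to 42.4 ± 1.22 FPKM (SD, n = 3 each), a log2 fold change of -0.61 (adjusted p = 4.07e-05). ELOB, the elongin B subunit of its ligase, fell (log2 fold change -0.40, adjusted p = 0.00298), and so did HIF1AN, the asparaginyl hydroxylase that blocks coactivator binding (log2 fold change -0.23, adjusted p = 0.00484). HIF1AN was not called under TPM, quantile or read-total scaling. ELOB was called neither under quantile normalization nor, with an adjusted p of 0.0537, after the GC trend was removed, but was called when the replicate number was a block as well (adjusted p = 0.0242). RBX1, the RING subunit of the ligase, rose (log2 fold change 0.18, adjusted p = 0.0442) with overlapping groups. Without either sh-CLGN replicate 1 or 2, or sh-NC replicate 2 or 3, RBX1 was not called, its value between 0.13 and 0.17 and its adjusted p between 0.0931 and 0.157. RBX1 also lost the call without the filter (adjusted p = 0.0956) and without the intensity trend (adjusted p = 0.0630). Without sh-CLGN replicate 1 or 2, or sh-NC replicate 2, the count of oxygen sensing genes that rose was 0, and without sh-NC replicate 3 it was 1.

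All 10 HIF cofactors and modulators were tested, 7 fell, 1 rose and 2 were not called, with a median of -0.47. CITED4, among the 7, passed the filter only through sh-NC. SIAH1, also among the 7, was not called in limma without the filter (adjusted p = 0.0747). It shares 26.7% of its exon bases with LONP2 on the opposite strand, a gene with 1076 to 1438 reads per library. SIAH2, a ubiquitin ligase that removes prolyl hydroxylases, fell from 22.4 ± 1.20 to 10.3 ± 0.524 FPKM (SD, n = 3 each), at a log2 fold change of -1.05 (adjusted p = 6.14e-06). The coactivator CREBBP fell (log2 fold change -0.80, adjusted p = 6.13e-05), and so did RACK1, which promotes HIF1A turnover (log2 fold change -0.65, adjusted p = 1.47e-05). HSP90 chaperones protect HIF1A. HSP90AA1 rose from 149 ± 9.01 to 235 ± 6.05 FPKM (SD, n = 3 each), at a log2 fold change of 0.66 (adjusted p = 3.48e-05), while HSP90AB1 was at -0.05 (adjusted p = 0.388). HSP90AB1 was above 0 under TPM scaling and after removal of the GC trend, and was called higher under quantile normalization (0.23, adjusted p = 0.00203) and read-total scaling (0.15, adjusted p = 0.0186). Those values include the shift of all genes under each setting.

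Of 17 glycolytic HIF targets 15 were tested, and 14 fell, 0 rose and 1 was not called, with a median of -0.73. At an unadjusted p under 0.05 limma had 15 lower and 0 higher, and voom called 0 higher. The glucose transporter SLC2A1, which passed, and HK2, a hexokinase, which did not, were above 0 and not called after removal of the GC trend and under quantile and read-total scaling. Those values include the shift of all genes under each setting. GAPDH fell from 1007 ± 35.4 to 490.1 ± 7.93 FPKM (SD, n = 3 each), a log2 fold change of -1.04 (adjusted p = 3.16e-06). GPI, the enzyme after hexokinase, fell (log2 fold change -1.001, adjusted p = 6.23e-06), as did ALDOC, an aldolase (log2 fold change -0.99, adjusted p = 1.47e-05), TPI1 (log2 fold change -0.74, adjusted p = 2.34e-05) and ENO1, enolase (log2 fold change -0.61, adjusted p = 5.70e-05). ALDOA, low in this table at 1.85 FPKM in sh-NC, shares 42.3% of its exon bases with a neighbouring gene on the same strand, and its value is uncertain.

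The 35 other HIF targets were divided. Of 31 tested, 16 fell, 9 rose and 6 were not called, with a median of -0.12, near that of all genes. DDIT4, an inhibitor of mTOR complex signalling, fell from 99.6 ± 9.02 to 28.0 ± 1.65 FPKM (SD, n = 3 each), at a log2 fold change of -1.79 (adjusted p = 2.07e-06), and STC2, a secreted glycoprotein, fell as well (log2 fold change -1.67, adjusted p = 1.00e-06). The cyclin CCND1 fell (log2 fold change -0.34, adjusted p = 4.05e-04), which was not called after removal of the GC trend or under quantile normalization. IGFBP3, a carrier of insulin-like growth factors, rose from 5.81 ± 0.376 to 18.2 ± 0.332 FPKM (SD, n = 3 each), at a log2 fold change of 1.498 (adjusted p = 1.59e-06). EPO, the hormone erythropoietin and a gene known to follow EPAS1, was named after its values were seen. It stood at 2.21, 2.21 and 2.77 FPKM in sh-NC and at 8.91, 7.71 and 8.01 in sh-CLGN, on 141 reads over sh-NC and 541 over sh-CLGN. EPO rose (log2 fold change 1.44, SE 0.0867, adjusted p = 7.42e-06). EPAS1 fell, and a link between the changes of EPO and EPAS1 was not tested.

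Among 16 partners and relatives of the genes 11 were tested, 4 rose, 4 fell and 3 were not called, with a median of -0.12. NRP2, a coreceptor for VEGF family ligands, rose from 0.676 ± 0.0333 to 4.28 ± 0.224 FPKM (SD, n = 3 each), at a log2 fold change of 1.66 (adjusted p = 2.51e-06). NRP2 was under 1 FPKM in all sh-NC libraries and passed the filter only through sh-CLGN, which fixed its direction. It was also called without the filter (adjusted p = 7.06e-05). VEGFB, a relative of VEGFA, fell (log2 fold change -0.35, adjusted p = 0.00745), but was not called after removal of the GC trend, under quantile normalization or with scaling by read totals. ADM2, a peptide related to adrenomedullin, fell (log2 fold change -1.19, adjusted p = 4.79e-05), as did NDRG3, of the NDRG family (log2 fold change -1.11, adjusted p = 2.44e-06), and the cytosolic carbonic anhydrase CA2 (log2 fold change -0.59, adjusted p = 5.08e-05). The VEGF receptor KDR, the ligand VEGFC and RAMP3, a subunit of adrenomedullin receptors, had 0 reads in all 6 libraries.

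Quantile normalization moved some of these list genes by more than 1.5 times without ending the call. VHL was then at -0.33, RACK1 at -0.36, ENO1 at -0.25, TPI1 at -0.40, CA2 at -0.33, RBX1 at 0.40 and HSP90AA1 at 1.003. NRP2, a gene low in sh-NC, was at 2.66 in voom, where no FPKM is added.

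**Figure D4:**
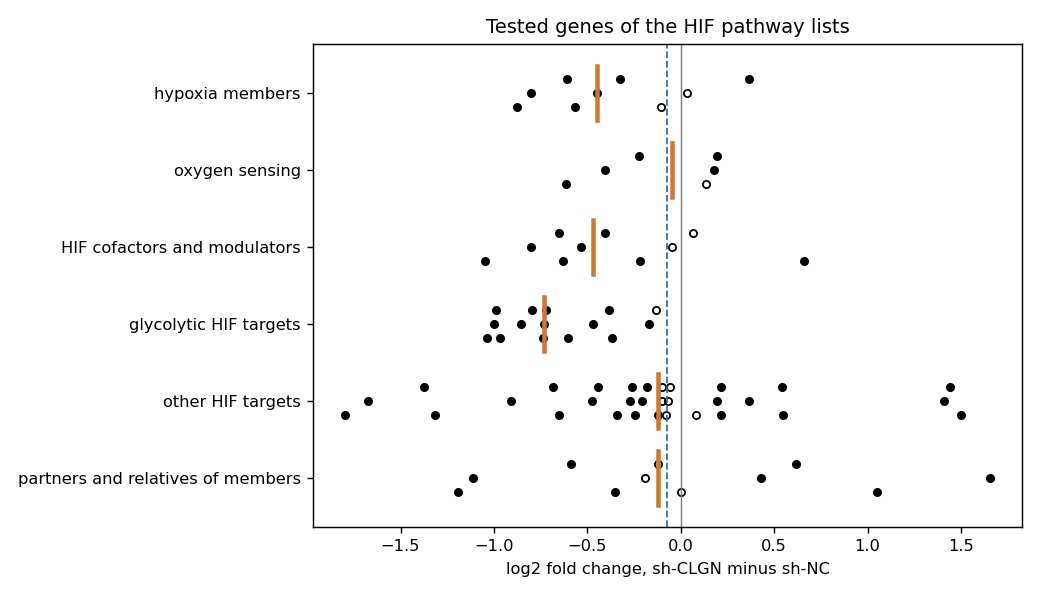
Log2 fold change (x axis, sh-CLGN minus sh-NC) of each tested gene of the hypoxia genes and the 5 lists (rows), filled where called by limma and open where not, with the median of each list in orange and the median of all 13074 genes tested, -0.08, as a dashed blue line. The 15 glycolytic targets all lie below 0 in this fit, SLC2A1 and HK2 not so under GC, quantile or read-total correction, while the other HIF targets run from -1.79 for DDIT4 to 1.498 for IGFBP3.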

How the data were processed

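The deposited file held FPKM values by gene for each library. The submitters' processing notes name HISAT2 2.0.5, featureCounts and GRCh38. The annotation, strandedness and test are not given in the sources used here. All 58735 gene positions equalled GENCODE 29. FPKM times length fell on whole reads for 100% of values (tolerance 0.01), which gave back reads per gene. KD columns were matched to sh-CLGN by title.

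limma 3.58.1 in R 4.3.3 was fitted to log2(FPKM + 1) of all 6 libraries with eBayes and an intensity trend, without covariates, for genes that reached 1 FPKM in 3 or more libraries. Two-sided p-values were adjusted over 13074 genes, and the fit was tested on simulated data. From each list the 3 tested genes with the highest mean level and the 3 called genes with the largest change and separate groups were named. EPO, ALDOA, SLC2A1, HK2, CITED4, SIAH1 and genes under the filter were added after their values were seen. A few genes chosen this way are not reported here. The members and lists were chosen with earlier results of these data known. Alternatives were other pseudocounts, filters, scalings and models, the replicate block and leaving out each library. A GC correction (lowess span 0.3, GC content of 99.95% of genes) and voom with a minimum of 10 reads per gene were added after seeing the data.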

Additional observations from a re-analysis of the deposited data

Results flagged for a closer look

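The genes named here belong to the lists but were under 1 FPKM in too many libraries for the comparison above, and their 3 libraries of each group did not overlap. The share of all genes under the filter with such separate groups is not given here. EGLN2, the third hydroxylase of the EGLN family, was 1.41 times as high in sh-CLGN as in sh-NC, at 1.00 against 0.711 FPKM, and shares 30.6% of its exon bases with a readthrough gene that was listed at 0 reads. SLC2A3, a glucose transporter, was 3.73 times as high, with 28 reads over sh-NC and 116 over sh-CLGN. HK1, a hexokinase, was 2.05 times as high, with 14 and 32 reads. RORA, a nuclear receptor, was 2.26 times as high, with 218 and 553 reads. FLT1, a VEGF receptor, was 6.16 times as high, with 3 and 21 reads. CALCRL, the receptor part shared by adrenomedullin and CGRP, was 3.82 times as high, with 17 and 73 reads. In limma without the filter, SLC2A3 (adjusted p = 0.00819), RORA (adjusted p = 0.0185) and CALCRL (adjusted p = 0.0179) were called higher, and EGLN2 (adjusted p = 0.116), HK1 (adjusted p = 0.148) and FLT1 (adjusted p = 0.244) were not. Of all 33474 genes in that fit, 4538 were called higher and 4708 lower. In voom on genes with at least 10 reads EGLN2 (0.49, adjusted p = 0.0136) and FLT1 (2.36, adjusted p = 0.0192) were called as well, and HK1 was not (0.94, adjusted p = 0.117). Of all 22042 genes in this voom fit, 5754 were called higher and 5593 lower, with a median log2 fold change of 0.11. HIF3A, a further HIF alpha gene under the filter, was lower in sh-CLGN, with 48 reads over sh-NC and 8 over sh-CLGN and separate groups, and was called without the filter (adjusted p = 0.0205) and in that voom fit (-2.66, adjusted p = 4.88e-04).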

How the results depend on the processing

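Under 19 alternatives, 159 of 171 values of the 9 genes kept their direction and their side of the threshold, 6 turned their sign, 4 became called and 2 lost the call. HIF1A was at -0.10 after removal of the GC trend, with or without the replicate block, and at -0.0095 without sh-NC replicate 2. EGLN1 was at 0.011 under TPM, 0.079 under quantile and 0.074 under read-total scaling, and HSP90AB1 at 0.016 after removal of the GC trend (also with the block), 0.079 under TPM, 0.23 under quantile and 0.15 under read-total scaling. The median shift of all genes, taken gene by gene, was 0.12 under TPM, 0.17 under read totals and 0.11 after removal of the GC trend.

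Of the hypoxia genes 2 rose under read totals, and 5 to 8 fell over the alternatives. Oxygen sensing genes that rose numbered 1 after removal of the GC trend (also with the block), without the intensity trend and with the replicate block, 0 without a filter, and 0 to 2 when a library was left out; 1 fell under quantile normalization. Cofactors that rose numbered 2 under TPM and after removal of the GC trend (also with the block) and 3 under quantile and read-total scaling. Glycolytic targets that rose numbered 1 without a filter and 1 in voom on genes with at least 10 reads. Other targets that fell numbered 10 under TPM, quantile and read-total scaling. Among all genes, 5754 rose in voom on genes with at least 10 reads.

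Calls that rose made up 40.7% of all calls, 48.9% after removal of the GC trend, 49.1% without a filter, 50.7% in voom on genes with at least 10 reads, 52.2% under TPM and 59.2% under read totals. Genes past both thresholds numbered 821, 1722 in voom, 1606 with a pseudocount of 0.1, 1426 under TPM and 3845 in voom on genes with at least 10 reads. Replicate numbers did not pair the libraries (correlations of deviations -0.02, -0.05 and -0.15); with the block 3281 genes rose in place of 3496, and no call of the 9 genes changed. With the block added to the GC correction HIF1A was not called (adjusted p = 0.0764) and ELOB was (adjusted p = 0.0242).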
